A study of Mus musculus with 6 samples.

Results

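Axon guidance genes encode secreted or membrane-bound cues and the receptors that read them. The genes studied here were the protein-coding rows of the deposited expression table named as semaphorins, plexins, neuropilins, ephrins, Eph receptors, netrins, the netrin receptors of the Unc5, Dcc and neogenin kind, Slits or Robos. This rule, which uses names and no expression values, found 60 of the 25416 genes in the table. They comprise 18 semaphorins, 9 plexins, 2 neuropilins, 8 ephrins, 8 Eph receptors, 4 netrins, 5 netrin receptors, 2 Slits and 4 Robo receptors. Each value is an FPKM (reads scaled to exon length and to the total of the library), so that levels of different genes can be set side by side.

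The cells were AML12, a line of mouse hepatocytes from an animal transgenic for human transforming growth factor alpha. They were transfected, with INTERFERin, with a scrambled RNA (siNC, n = 3) or with an siRNA to Setdb1 (siSetdb1, n = 3). The amount was 50 nM in all libraries, and mRNA was purified with oligo(dT) beads after 72 h. The protein made from Setdb1 methylates histone H3, a mark of silent chromatin. The siRNA serves to lower Setdb1, and only RNA was measured here. Effects of less Setdb1 cannot be told apart in this design from other effects of the siRNA. The labels do not say if replicates are separate cultures. The p-values set the group difference against the spread between these libraries, which may be technical.

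Semaphorins act through plexins. Secreted class 3 semaphorins usually need a neuropilin as co-receptor, whereas most membrane-bound ones bind a plexin directly. Ephrins are held on the cell surface and bind Eph receptor tyrosine kinases on neighbouring cells, and the receptor-bearing and the ligand-bearing cell can both respond. Netrins bind Dcc, neogenin and Unc5 receptors, and Slits bind Robos. Outside the nervous system these families are known for their part in cell adhesion, migration, blood vessel growth and epithelial organisation. In liver, neogenin is known as a receptor for repulsive guidance molecules in the control of iron, and plexin-B2 and EphA2 are found on epithelial cells.

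Setdb1 stood at 8.41, 8.54 and 9.43 FPKM in siNC and at 4.29, 4.21 and 3.29 FPKM in siSetdb1, so that each siSetdb1 library was below each siNC library (log2 fold change -1.0, adjusted p = 0.00183, limma). The libraries held 16790582 to 17835060 reads. On the first principal component, with 54.8% of the variance, siNC replicate 1 lay at -26.7 and the other siNC libraries at -11.7 and -10.8, so results are also given without it. Hepatocyte markers were partly present: Hnf4a had 27.1 to 38.2 FPKM and Alb 1.45 to 14.3 FPKM, whereas Cps1 was at 0.0314 FPKM or less, and the bile duct keratin gene Krt19 had 1204 to 1444 FPKM. Some cell-type markers differed between the groups, and others did not. The 12 hepatocyte markers in the table summed to 133 to 179 FPKM in siNC and 85.1 to 110 FPKM in siSetdb1. Of these, 2 were lower: Trf (means 23.8 and 8.67 FPKM) and Ttr (27.5 and 7.02 FPKM). Apob had a higher mean in siSetdb1 (7.83 and 10.3 FPKM) and did not pass. The 5 bile duct markers summed to 1650 to 1837 and 1636 to 1817 FPKM, with Sox9 (4.95 and 9.26 FPKM) and Krt7 (154 and 218 FPKM) higher and Spp1 (220.3 and 115 FPKM) lower. The 3 macrophage markers summed to 4.22 to 6.28 and 2.17 to 3.08 FPKM, with Cd68 lower and Ptprc at a mean of 0.00635 FPKM in siNC. The 5 fibroblast markers summed to 0.634 to 0.649 and 0.840 to 1.22 FPKM. Of the fibroblast markers only Des was tested, and it did not pass. The part of these markers in the results on guidance genes was not tested. Many guidance genes are best known from neurons and vessels. The 6 neuronal markers in the table summed to 0.569 to 0.592 FPKM in siNC and 0.567 to 0.622 FPKM in siSetdb1, and of 7 endothelial markers, which summed to 0.962 to 0.978 and 0.952 to 1.15 FPKM, only Flt1 passed 0.5 FPKM in any library.

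Of the 60 guidance genes, 37 had at least 0.5 FPKM in 3 or more libraries and were tested, and 23 were not. Among the 37, 10 were higher and 2 lower in siSetdb1 at an adjusted p of 0.05, which is 32.4% of them, and 25 did not pass. Of all 12846 genes tested 15.1% passed, 6.87% higher and 8.27% lower, and of the 10576 protein-coding ones 16.3% passed. The balance over all genes turned with the scaling: 883 were higher and 1062 lower here, 997 and 847 with median-ratio scaling, and 995 and 898 with the exon length trend removed. The median log2 fold change was 0.11 over the guidance genes and -0.02 over all genes tested. The 3 siSetdb1 libraries lay above all siNC libraries for 15 of the 37 genes and below them for 6, and no overlap of this kind was seen for 39.2% of all genes tested (17.6% above, 21.6% below). Fold changes of siSetdb1 over siNC are given as differences in log2(FPKM + 1), where the added 1 makes them too small for low genes.

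**Figure D1:**
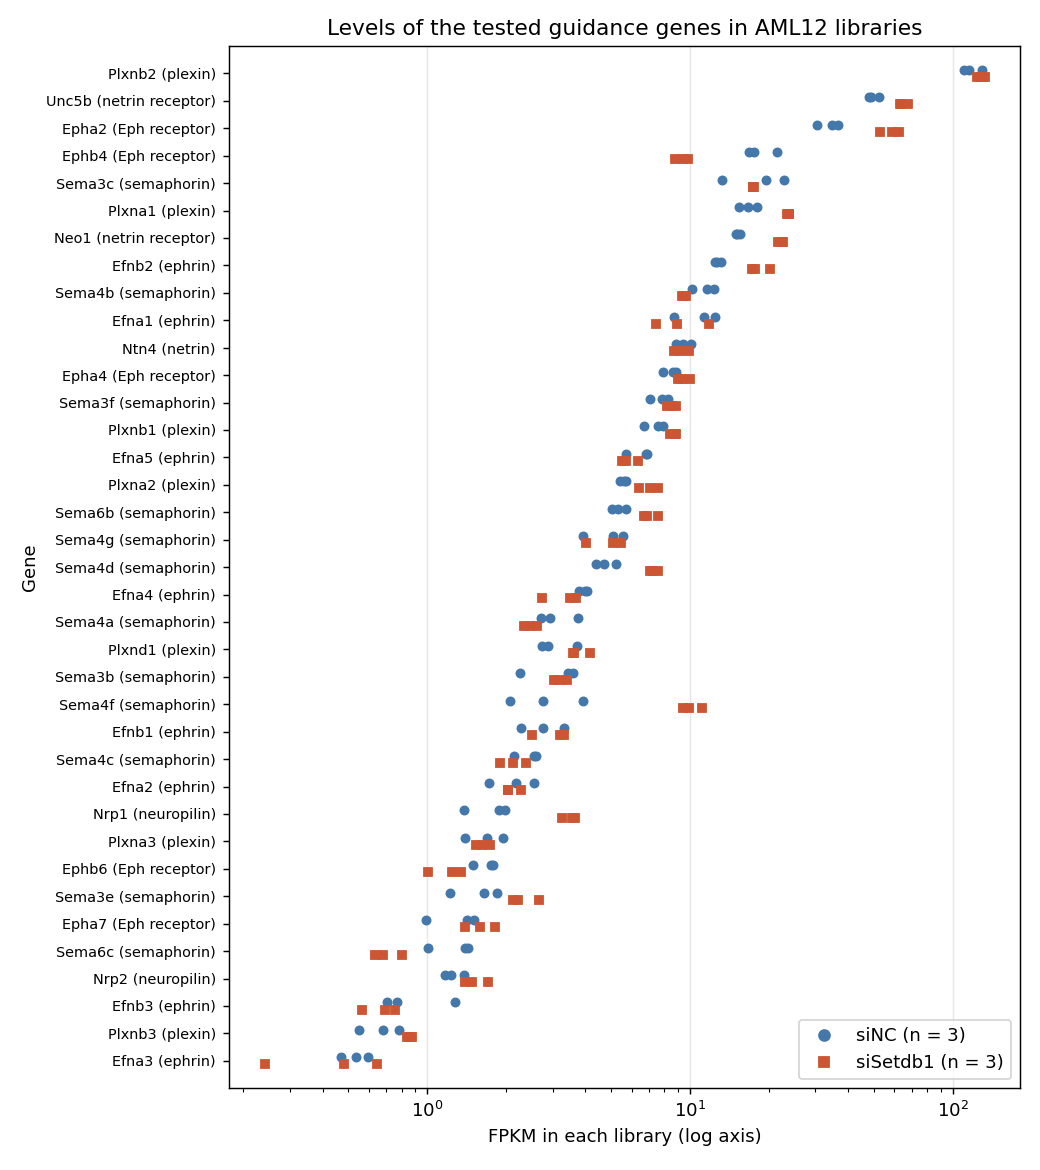
FPKM of the 37 tested guidance genes in each library on a log axis, with siNC as circles and siSetdb1 as squares (3 libraries each), ordered by the mean in siNC. Plxnb2 is at the top at over 110 FPKM in every library. The siSetdb1 group lies wholly above siNC for 15 genes, among them Sema4f, Nrp1 and Epha2. It lies wholly below for 6, among them Ephb4. Over all genes tested, 17.6% lay above and 21.6% below in this way.

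Receptors were the most abundant members. Plxnb2, Unc5b and Epha2 were the only genes of the 37 with a mean of 20 FPKM or more in siNC, and together they held 50.1% ± 2.0 of the summed FPKM of the 60 genes in siNC and 52.9% ± 0.8 in siSetdb1 (SD, n = 3). Sorted by role, 6 of 16 tested receptor genes were higher and 1 lower, and 4 of 21 tested ligand genes were higher and 1 lower; whether these shares differ was not tested. Of the 19 genes with a mean of at least 5 FPKM in either group, 9 were higher and 1 lower. Of the 18 below that level 1 was higher and 1 lower. Sema4f and Sema4d reach that level only in siSetdb1, where they are high, so the rule itself places them among the 19. This split is therefore no test of an effect of level. Over all protein-coding genes at 5 FPKM or more by the same rule, 18.9% passed, 8.93% higher and 10.0% lower. RNA was measured in bulk, so a lower value cannot be told apart from fewer cells that express the gene.

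Among the semaphorins, Sema4f had the widest change of the 37 genes. It encodes a membrane-bound class 4 semaphorin, first studied in the nervous system. Sema4f (ENSMUSG00000000627, chromosome 6, 82911885 to 82939769, minus strand) was at 2.77, 2.07 and 3.93 FPKM in siNC and at 9.38, 11.1 and 9.95 FPKM in siSetdb1. Every siSetdb1 library was more than double the highest siNC library. The rise was 3.47-fold, with means of 2.92 ± 0.94 and 10.1 ± 0.9 FPKM (SD, n = 3; log2 fold change 1.53, SE 0.16, adjusted p = 0.00241), with 191 to 1002 reads behind each value. No other guidance gene reached a log2 difference of 1 on this scale, though Nrp1 was at 1.01 with limma-voom on recovered reads.

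Sema4d, whose product binds plexin-B1 and plexin-B2, had 4.70, 4.38 and 5.23 FPKM in siNC and 7.06, 7.22 and 7.56 FPKM in siSetdb1. The groups did not overlap, and the mean rose 1.53-fold (log2 fold change 0.52, SE 0.08, adjusted p = 0.00686). The other 4 class 4 semaphorins in the table did not pass. Sema4b, the most abundant of them, had 12.4, 10.2 and 11.6 FPKM in siNC and 9.67, 9.33 and 9.53 FPKM in siSetdb1 (adjusted p = 0.0957), without overlap, and it passed (0.0485) where trends with exon length and GC content were removed. Sema4a had 3.13 ± 0.53 and 2.47 ± 0.14 FPKM, with siSetdb1 below siNC in all libraries, and Sema4c (2.43 ± 0.25 and 2.13 ± 0.25 FPKM) and Sema4g (4.85 ± 0.84 and 4.88 ± 0.75 FPKM) had overlapping groups. In a reading chosen after the values were seen, Sema4f made up 8.87%, 8.16% and 12.4% of the summed class 4 FPKM in siNC and 25.9%, 30.7% and 27.0% in siSetdb1, while the sum of the other 5 genes was 26.6 ± 2.8 and 26.3 ± 1.1 FPKM.

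The membrane-bound class 6 genes differed in opposite directions. Sema6b had 5.07, 5.34 and 5.69 FPKM in siNC and 6.71, 6.89 and 7.56 FPKM in siSetdb1, a rise of 1.31-fold (log2 fold change 0.34, adjusted p = 0.0272). Sema6c had 1.39, 1.01 and 1.43 FPKM in siNC and 0.800, 0.632 and 0.680 FPKM in siSetdb1, and its mean fell by 44.9% (log2 fold change -0.41, adjusted p = 0.0423). Neither gene had overlapping groups. The adjusted p of Sema6b became 0.0747 when siNC replicate 2 was left out, and 0.0756, 0.0834 and 0.0898 when siSetdb1 replicate 1, 2 or 3 was. The adjusted p of Sema6c, which rests on 64 to 146 reads per library, became 0.0812 or 0.0990 when siNC replicate 1 or 3 was left out, and 0.0999, 0.134 and 0.108 when siSetdb1 replicate 1, 2 or 3 was.

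None of the 4 tested class 3 semaphorins, which are secreted, passed by limma, and 1 of them (Sema3e) had an unadjusted p under 0.05. Sema3c, a ligand that signals through neuropilins, was the most abundant, at 13.2, 19.5 and 22.8 FPKM in siNC and 17.4, 17.3 and 17.6 FPKM in siSetdb1. The siNC libraries enclosed the siSetdb1 ones, with siNC replicate 1 lowest. Sema3e, a ligand of plexin-D1 that needs no neuropilin, had 1.23, 1.65 and 1.85 FPKM in siNC and 2.13, 2.67 and 2.22 FPKM in siSetdb1. Its groups did not overlap, and with an adjusted p of 0.0709 it lay just outside the threshold; with limma-voom on recovered reads the value was 0.0292. Sema3f, a neuropilin-2 ligand, had 8.26, 7.08 and 7.82 FPKM in siNC and 8.52, 8.17 and 8.83 FPKM in siSetdb1, with a slight overlap, and Sema3b had 3.08 ± 0.73 and 3.21 ± 0.19 FPKM.

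Of the semaphorin receptors, Nrp1, the co-receptor of class 3 semaphorins and of vascular endothelial growth factors, had the largest relative change. Nrp1 (ENSMUSG00000025810, chromosome 8, 128358604 to 128503363, plus strand) was at 1.38, 1.87 and 1.98 FPKM in siNC and at 3.54, 3.65 and 3.25 FPKM in siSetdb1. The groups were far apart, and the mean rose 1.99-fold (log2 fold change 0.71, SE 0.11, adjusted p = 0.00656). Its paralog Nrp2 had 1.24, 1.16 and 1.38 FPKM in siNC and 1.49, 1.71 and 1.39 FPKM in siSetdb1 and did not pass (log2 fold change 0.16, adjusted p = 0.268). The ratio of Nrp1 to Nrp2 FPKM in a library, examined after the values were seen, was 1.12, 1.61 and 1.44 in siNC and 2.38, 2.13 and 2.33 in siSetdb1.

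Plexins of the A class, which pair with neuropilins, included both plexin genes that passed. Plxna1 (ENSMUSG00000030084, chromosome 6, 89316314 to 89362620, minus strand) had 17.99, 16.6 and 15.4 FPKM in siNC and 23.8, 23.8 and 23.4 FPKM in siSetdb1. All siSetdb1 libraries were above all siNC libraries, and the mean rose 1.42-fold (log2 fold change 0.48, SE 0.07, adjusted p = 0.00689). Plxna2 had 5.61, 5.44 and 5.69 FPKM in siNC and 7.57, 7.06 and 6.40 FPKM in siSetdb1. It lay just inside the threshold, with a log2 fold change of 0.28 and an adjusted p of 0.0491. This call was lost without any 1 library (adjusted p 0.0546 to 0.178), and with the exon length trend removed the log2 fold change was 0.15 (adjusted p = 0.271). Plxna2 had the longest summed exons of the 37 genes, at 17174 bases. Plxna3 had 1.68 ± 0.28 and 1.63 ± 0.10 FPKM.

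Plxnb2, a receptor of class 4 semaphorins, was the most abundant guidance gene, at 129, 111 and 115 FPKM in siNC and 132, 124 and 128 FPKM in siSetdb1. The groups overlapped, and the gene did not pass (log2 fold change 0.11, 95% interval -0.07 to 0.29, adjusted p = 0.356). Plxnb1, the main receptor of Sema4d, had 7.54, 6.67 and 7.87 FPKM in siNC and 8.88, 8.76 and 8.38 FPKM in siSetdb1. Its groups did not overlap, but its adjusted p was 0.106. Plxnb3 had 0.670 ± 0.116 and 0.859 ± 0.018 FPKM, also without overlap (adjusted p = 0.295). Plxnd1, the receptor of Sema3e, had 3.72, 2.89 and 2.73 FPKM in siNC and 4.16, 3.62 and 3.60 FPKM in siSetdb1 (adjusted p = 0.197), and without siNC replicate 1 it passed (log2 fold change 0.33, adjusted p = 0.0407).

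**Figure D2:**
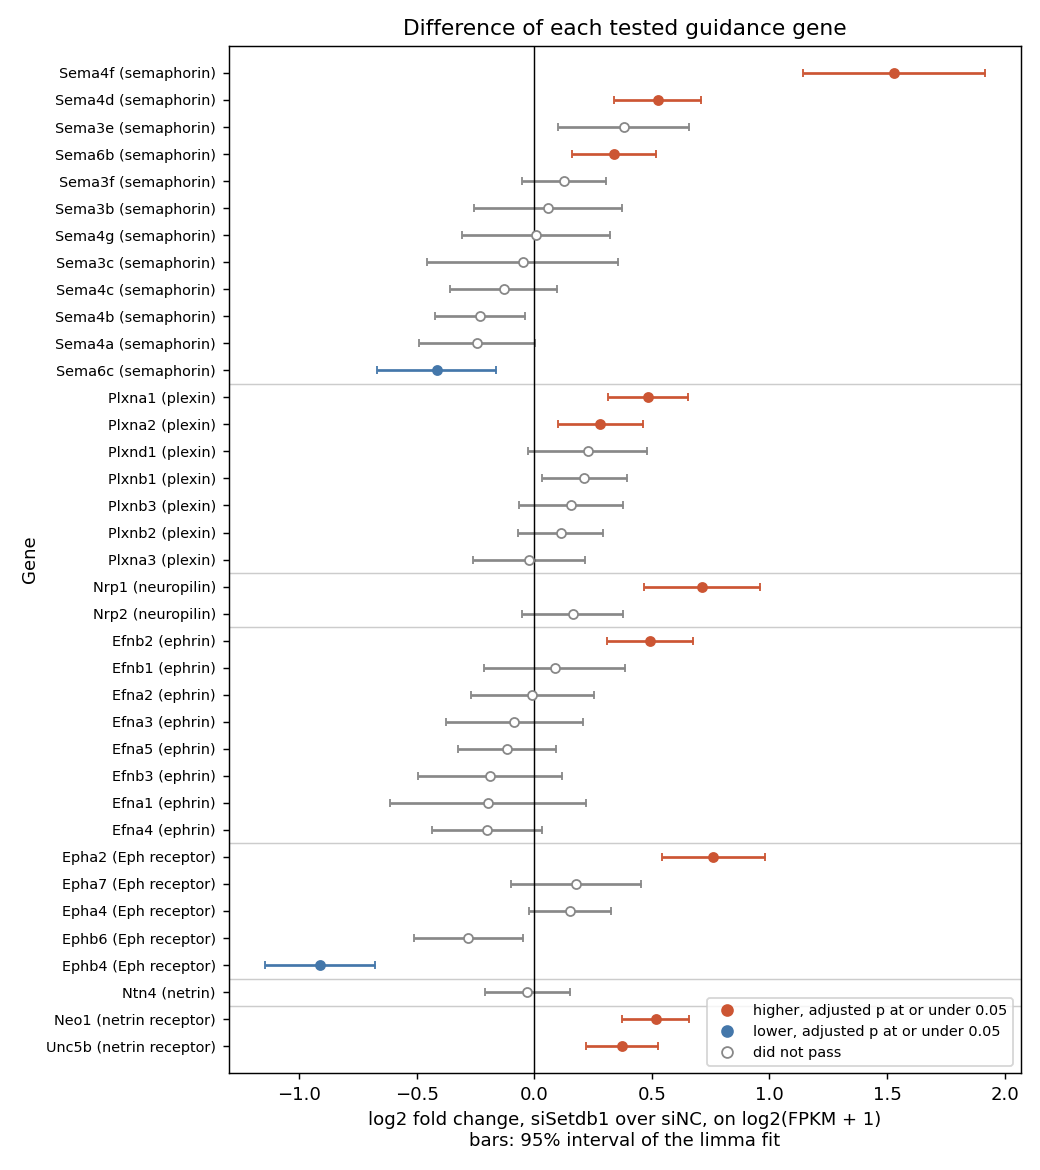
log2 fold change of siSetdb1 over siNC for each tested guidance gene, by family, with the 95% interval of the limma fit. Filled points passed the test (10 higher, 2 lower) and open points did not; Sema4f at 1.53 and Ephb4 at -0.91 lie farthest from 0.

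Eph receptors held the largest fall and one of the larger rises. Ephb4, a receptor whose main ligand is ephrin-B2 and which marks veins in the vasculature, fell. Ephb4 (ENSMUSG00000029710, chromosome 5, 137350109 to 137378669, plus strand) was at 21.4, 17.5 and 16.7 FPKM in siNC and at 9.82, 8.75 and 9.44 FPKM in siSetdb1. The highest siSetdb1 library was well under the lowest siNC library. The means were 18.6 ± 2.5 and 9.33 ± 0.54 FPKM (SD, n = 3), and the level fell by 49.7% (log2 fold change -0.91, SE 0.10, adjusted p = 0.00238), with 693 to 1667 reads per library.

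Epha2, a receptor of ephrin-A ligands that is common on epithelial cells, rose. Epha2 (ENSMUSG00000006445, chromosome 4, 141301240 to 141329384, plus strand) was at 36.7, 30.4 and 34.6 FPKM in siNC and at 53.0, 58.7 and 62.6 FPKM in siSetdb1. No siNC library reached a siSetdb1 library, and the mean rose 1.71-fold (log2 fold change 0.76, SE 0.09, adjusted p = 0.0036). Of the other tested Eph genes, Epha4 had 7.87, 8.85 and 8.59 FPKM in siNC and 9.35, 10.0 and 9.02 FPKM in siSetdb1, without overlap (adjusted p = 0.214). Ephb6, whose product lacks kinase activity, had 1.67 ± 0.16 and 1.202 ± 0.175 FPKM, also without overlap (adjusted p = 0.0963), and Epha7 had 1.305 ± 0.277 and 1.599 ± 0.212 FPKM with overlap.

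All 8 ephrin genes in the table were tested, and 1 passed. Efnb2 (ENSMUSG00000001300, chromosome 8, 8617434 to 8661242, minus strand), which encodes ephrin-B2, was at 12.4, 13.1 and 12.7 FPKM in siNC and at 17.7, 17.2 and 20.2 FPKM in siSetdb1. The siNC libraries lay close together and below all siSetdb1 libraries, and the mean rose 1.44-fold (log2 fold change 0.49, SE 0.08, adjusted p = 0.00826). Ephrin-B2 and its receptor gene Ephb4 thus differed in opposite directions. The ratio of Efnb2 to Ephb4 FPKM, a measure chosen after the values were seen, was 0.581, 0.746 and 0.759 in siNC and 1.80, 1.96 and 2.14 in siSetdb1.

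The other ephrins gave smaller differences. Efna1, a ligand of EphA2, had 8.72, 11.3 and 12.5 FPKM in siNC and 11.9, 8.90 and 7.41 FPKM in siSetdb1, with wide overlap (log2 fold change -0.20, 95% interval -0.61 to 0.22). Efna5 had 5.72, 6.78 and 6.84 FPKM in siNC and 5.53, 6.32 and 5.73 FPKM in siSetdb1. Efna4 had 3.95 ± 0.14 and 3.32 ± 0.50 FPKM, with siSetdb1 below siNC in every library, and did not pass (adjusted p = 0.208). Efna2, Efnb1, Efnb3 and Efna3 had means of 0.456 to 3.02 FPKM and adjusted p-values of 0.365 to 0.964. The genes Efna1, Efna3 and Efna4 lie side by side on chromosome 3, with 32756 and 10424 bases between them, and at means of 10.8, 0.536 and 3.95 FPKM in siNC.

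Promoters of 4 genes that carry these changes are shown: Sema4f as the gene with the widest change, Epha2, and the ligand and receptor genes Efnb2 and Ephb4 that differed in opposite directions. Each is 300 bases of RefSeq sequence (GRCm38.p6), from 250 bases before the annotated start to 50 bases after it. The bases run 5′ to 3′ on the gene's strand, and each start lies within 19 bases of the gene's 5′ end in the deposited table. Capitals mark CpG pairs and, in Epha2, the palindrome TGACGTCA. The windows are chr6:82939720-82940019 (minus strand), chr4:141300971-141301270 (plus), chr5:137349859-137350158 (plus) and chr8:8661193-8661492 (minus).
Sema4f: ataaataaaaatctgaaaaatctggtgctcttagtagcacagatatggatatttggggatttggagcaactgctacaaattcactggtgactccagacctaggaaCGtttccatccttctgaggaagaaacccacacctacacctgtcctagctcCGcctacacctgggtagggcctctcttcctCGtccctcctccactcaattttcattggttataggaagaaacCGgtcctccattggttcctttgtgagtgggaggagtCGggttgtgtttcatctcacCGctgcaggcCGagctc
Epha2: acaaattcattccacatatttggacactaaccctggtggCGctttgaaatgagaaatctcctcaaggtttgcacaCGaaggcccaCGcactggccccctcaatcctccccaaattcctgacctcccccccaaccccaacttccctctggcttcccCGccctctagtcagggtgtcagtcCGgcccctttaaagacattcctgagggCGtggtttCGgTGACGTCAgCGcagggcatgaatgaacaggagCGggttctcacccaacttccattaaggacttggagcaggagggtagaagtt
Ephb4: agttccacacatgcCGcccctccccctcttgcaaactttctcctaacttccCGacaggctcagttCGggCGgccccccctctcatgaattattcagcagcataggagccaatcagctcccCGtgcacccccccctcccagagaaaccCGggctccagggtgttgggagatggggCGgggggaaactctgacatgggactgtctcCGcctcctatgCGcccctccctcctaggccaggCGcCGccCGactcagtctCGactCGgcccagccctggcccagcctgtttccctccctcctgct
Efnb2: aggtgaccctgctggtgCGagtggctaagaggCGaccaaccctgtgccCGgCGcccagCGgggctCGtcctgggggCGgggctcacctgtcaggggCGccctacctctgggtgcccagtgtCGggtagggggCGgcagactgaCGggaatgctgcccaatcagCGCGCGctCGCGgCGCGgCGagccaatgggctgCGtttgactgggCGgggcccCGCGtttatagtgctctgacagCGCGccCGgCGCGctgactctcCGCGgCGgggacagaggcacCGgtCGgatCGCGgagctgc
The CpG counts are 7, 10, 14 and 35, and the median over the 10776 promoters of tested protein-coding genes is 21. Over all 32851 RefSeq promoters the median is 7, so that Sema4f is at that median, and 93.05% of promoters have fewer CpG pairs than Efnb2.

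A RefSeq promoter was found for 51 of the 60 genes and 33 of the 37 tested. The letters TGANTCA (AP-1) and GCGNGGGCG (EGR), with N for any base, and an NF-kB motif were searched on both strands. None of these occurs in the 4 windows. With 1 promoter per gene, that nearest the 5′ end of the deposited gene, the EGR letters occur in 7 of 33 tested genes (21.2%). They occur in 3 of the 9 genes with a promoter that rose (Plxna2, Sema6b and Unc5b). The starts used for Nrp1, Plxna2 and Sema4d lie 469, 1611 and 37064 bases from the gene's 5′ end. Counting every promoter of a gene, the EGR letters occur in 8 of 46 promoters of tested guidance genes (17.4%) and in 10.7% of those of tested protein-coding genes. Counted in the same way, the AP-1 letters occur in 3 of the 46 (6.52%) and in 5.13%, and the NF-kB motif in 1 (2.17%) and in 1.74%. The cyclic AMP response element TGACGTCA, added after the Epha2 sequence was seen, occurs in 1 of the 46, that of Epha2, and in 3.2% of promoters of tested protein-coding genes. A match to these letters is a description of the sequence and not of binding.

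Both netrin receptor genes that could be tested rose. Neo1 (ENSMUSG00000032340, chromosome 9, 58874687 to 59036441, minus strand), which encodes neogenin, a receptor of netrins and repulsive guidance molecules, was at 14.9, 15.1 and 15.5 FPKM in siNC and at 22.3, 22.6 and 21.5 FPKM in siSetdb1. Libraries of a group lay close together and the groups far apart, and the mean rose 1.46-fold (log2 fold change 0.52, SE 0.06, adjusted p = 0.00306). Unc5b, a netrin-1 receptor known from vessels and from cell death without ligand, was the second most abundant guidance gene, at 52.2, 48.2 and 49.0 FPKM in siNC and at 63.4, 63.05 and 67.7 FPKM in siSetdb1. The groups did not overlap, and the mean rose 1.30-fold (log2 fold change 0.37, SE 0.07, adjusted p = 0.0122). Without siSetdb1 replicate 1 its adjusted p was 0.0517.

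Of the netrin genes, Ntn4, whose product lies in basement membranes and binds laminin, was the only one tested. It had 8.88, 10.1 and 9.45 FPKM in siNC and 9.89, 8.71 and 9.17 FPKM in siSetdb1, with overlap (log2 fold change -0.03, 95% interval -0.21 to 0.15). Ntn1, the best-known ligand of Unc5b and Dcc, had 3, 3 and 6 reads in siNC and no reads in siSetdb1, too few for a fold change. Dcc had 0 to 4 reads per library. Of the repulsive guidance molecule genes, Rgmb had 0.874 ± 0.081 and 1.10 ± 0.17 FPKM and did not pass.

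**Figure D3:**
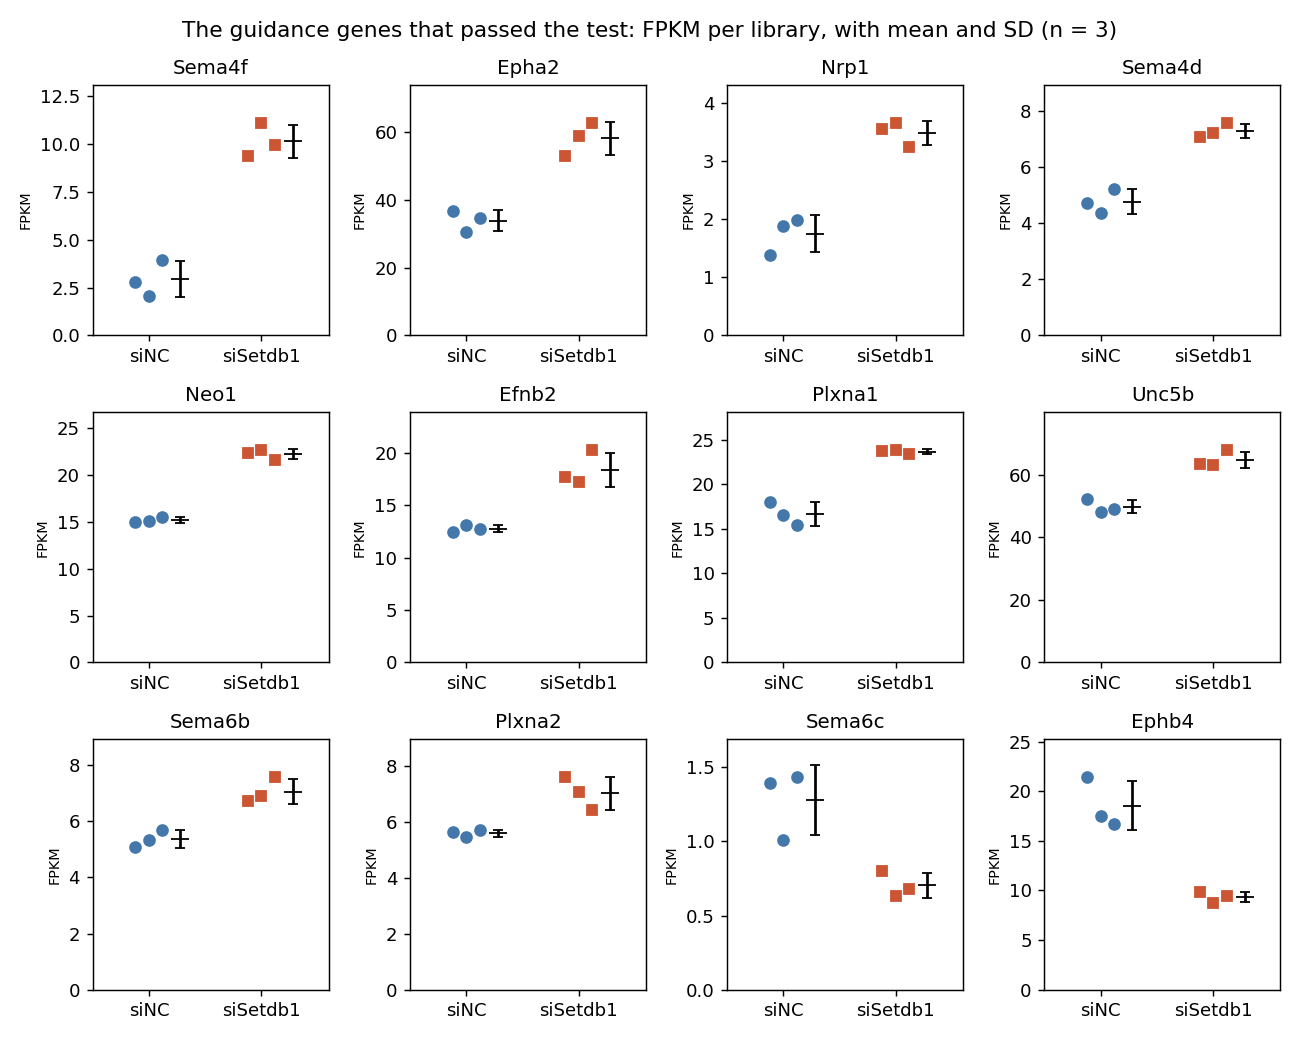
FPKM per library of the 12 guidance genes that passed the test, with siNC as circles, siSetdb1 as squares and the mean and SD of 3 libraries as a bar beside them; each axis starts at 0. The groups do not overlap in any of the 12 panels.

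The 23 genes that were not tested did not exceed 0.358 FPKM in any library, and 17 of them stayed under 0.1 FPKM throughout. They include all 6 Slit and Robo genes in the table, the receptor genes Dcc, Plxna4, Plxnc1, Unc5a, Unc5d, Epha1, Epha5 and Ephb2, the netrin genes Ntn3 and Ntn5 beside Ntn1, and 6 semaphorins (Sema3a, Sema3d, Sema3g, Sema5a, Sema6d and Sema7a). Robo1, a Slit receptor, was the highest of them, with 72, 103 and 80 reads in siNC against 59, 47 and 45 in siSetdb1, or 0.260, 0.358 and 0.282 FPKM against 0.207, 0.167 and 0.153 FPKM. Its siSetdb1 libraries were all lower. Robo3 had 24, 17 and 26 reads in siNC against 15, 7 and 17, so that its groups met at 17 reads. Sema7a had 0, 0 and 1 reads in siNC and 0, 1 and 6 in siSetdb1. With no filter on low values 9 guidance genes passed, all among the 12.

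The 12 genes that passed lie on 10 chromosomes, with 2 each on chromosomes 6 and 8. Exons of the tested guidance genes were long, with a median of 5935 bases against 4478.5 bases over protein-coding genes tested and 3786 over all genes tested, and their longest transcripts had a median GC content of 56.6% against 49.6% and 49.4%. Across all genes the log2 fold change went with exon length (Spearman's correlation 0.21, n = 12832 genes, which share the 6 libraries) and, in the other direction, with GC content (-0.27); leaving out siNC replicate 1 gave 0.14 and -0.05. With the length trend removed, 11 of the 12 genes passed again, Plxna2 being the exception, and the log2 fold changes of Sema4f, Ephb4, Epha2, Nrp1 and Neo1 were 1.52, -0.91, 0.77, 0.65 and 0.47. With the GC trend removed as well, they were 1.57, -0.86, 0.81, 0.57 and 0.48. There 11 of the 12 passed, with Plxna2 lost. Without siNC replicate 1 they were 1.51, -0.81, 0.82, 0.61 and 0.50, and 10 of the 12 passed, with Plxna2 and Sema6c lost. The deposited gene annotation gives the Gene Ontology term for axon guidance to 28 of the 60 genes, among them all 8 ephrins but 3 of 18 semaphorins.

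For 2 of the genes that passed, exons overlap a gene on the opposite strand. An antisense transcript, Gm26811, shares 970 bases with the exons of Plxna1 and was at a mean of 0.0953 FPKM, and Zan shares 33 bases with those of Ephb4 at a mean of 0.275 FPKM. The labels name no step that marks strand, so such reads cannot be assigned to either gene.

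Of 113 genes listed as co-receptors, ligands and downstream effectors of these pathways, 104 were in the table and 79 were tested, of which 13 were higher, 7 lower and 59 did not pass. This is 25.3% of those tested, and 15.1% of all genes passed. The lists were chosen with earlier results of these data known, so this share is a description and no test. The number that passed ran from 7 to 22 when a library was left out. In the semaphorin and plexin list, with 4 of 21 higher and 4 lower, Itgb1, the shared beta-1 subunit of many integrins, rose, with means of 165 ± 18 and 282 ± 9.5 FPKM (log2 fold change 0.78, adjusted p = 0.00306). Itga1, which joins it in a collagen receptor that also binds semaphorin 7A, fell from 1.82 ± 0.38 to 0.583 ± 0.089 FPKM. Of the growth factors that bind neuropilin-1, Pgf rose from 1.91 ± 0.67 to 4.49 ± 0.70 FPKM and Vegfb fell from 71.8 ± 7.8 to 53.6 ± 3.5 FPKM, while Vegfa had 19.0 ± 6.1 and 22.1 ± 2.1 FPKM and did not pass. Of the intracellular effectors, Rnd2 fell from 7.09 ± 0.65 to 3.65 ± 0.32 FPKM, and Dpysl3, of the collapsin response mediator family, from 1.54 ± 0.14 to 0.638 ± 0.045 FPKM. Mical3, of a family of actin-oxidising enzymes, and Farp2, an exchange factor for Rac, rose by 0.41 and 0.36 on the log2 scale.

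None of 17 tested effectors and proteases of the ephrin and Eph pathway passed by limma, though 4 had an unadjusted p under 0.05 and 1 passed with limma-voom. Adam10, a protease that sheds ephrins, had 43.9 ± 6.3 and 44.1 ± 0.8 FPKM, and the kinase gene Src had 26.1 ± 1.5 and 28.3 ± 0.7 FPKM. Rasa1 had 9.86 ± 2.76 and 14.6 ± 1.0 FPKM, without overlap (log2 fold change 0.55, adjusted p = 0.0875, limma). Nck1 went the other way, with 5.95 ± 1.17 and 4.40 ± 0.32 FPKM and overlap (adjusted p = 0.107, limma). In the Slit and Robo list 3 of 14 were higher and none lower: Abl2, a tyrosine kinase (7.62 ± 0.27 to 11.3 ± 0.7 FPKM), Ndst1, an enzyme of heparan sulfate synthesis (34.2 ± 2.5 to 43.8 ± 0.6 FPKM), and Cap1, an actin regulator (82.1 ± 2.7 to 99.3 ± 2.8 FPKM). In the netrin list 3 of 10 were higher and 2 lower. Flrt3, which encodes a membrane ligand of Unc5 receptors, rose from 2.60 ± 0.53 to 4.56 ± 0.56 FPKM, and the focal adhesion kinase gene Ptk2 and the exchange factor gene Trio rose by 0.30 and 0.25 on the log2 scale. Dock1, an activator of Rac, and Maged1, an adaptor of Unc5 receptors, each fell by 0.34 on the log2 scale.

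In the list of shared actin regulators 3 of 18 were higher and 1 lower. The p21-activated kinase gene Pak4 fell, with means of 33.2 ± 2.7 and 17.4 ± 0.9 FPKM (log2 fold change -0.90, adjusted p = 0.00127). Rhob rose from 56.1 ± 8.9 to 96.3 ± 7.4 FPKM, Pak2 from 21.6 ± 1.7 to 27.9 ± 1.5 FPKM and Rac1 from 201.5 ± 11.6 to 249.9 ± 2.2 FPKM. Rhoa and Cdc42 had 63.0 ± 4.9 and 64.1 ± 1.5 FPKM and 118 ± 2 and 115 ± 3 FPKM and did not pass.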

How the data were processed

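Polyadenylated RNA was read as single-end 50-base reads on a BGISEQ-500, per the labels' protocols. The tools RSEM 1.2.12, Bowtie2 2.2.5, DESeq2 1.4.5 and HISAT2 2.0.4 and the build mm10 are named, per the submitters' processing notes, without roles. The deposited table names no unit. The deposited values behave as FPKM: multiplied by GENCODE M21 exon lengths (GRCm38, the assembly of mm10), they are whole multiples of 1 read, within 0.01, for 98.8% of 25372 genes and for all 60 guidance genes. The reads given in the text were recovered this way. Groups came from the sample titles.

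Genes that reached 0.5 FPKM in 3 libraries or more (12846, with 12570 left out) entered a limma fit (3.58.1; R 4.3.3) of log2(FPKM + 1) on group, with trend and robust empirical Bayes. Tests are two-sided, with p-values adjusted by the Benjamini-Hochberg method over all genes tested. The fit was also run on simulated reads with the same spread for all genes and no library set apart. That setting differs from these data, where siNC replicate 1 lay apart, so it does not show how the fit performs here. Every gene that passed, and every tested one with a mean of 5 FPKM or more in either group, is given per library. Of the partner genes, up to 4 per direction and list are named, beside some that were chosen after their values were seen (Vegfa, Rgmb, Adam10, Src, Rasa1, Nck1, Rhoa, Cdc42). The genes and lists were chosen with earlier results of these data known. Alternatives were another pseudocount, filter, scaling, test, trend removal, replicate block and the omission of each library.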

Additional observations from a re-analysis of the deposited data

How the results depend on the processing

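Of the 12 guidance genes that passed, 8 (Sema4f, Sema4d, Nrp1, Plxna1, Epha2, Ephb4, Efnb2 and Neo1) passed under every alternative run, and the others are named below. The number of guidance genes that passed was 12 with a pseudocount of 0.1, a filter at 1 FPKM or median-ratio scaling, 13 with limma-voom on recovered reads, 11 with the exon length trend removed, 9 with no filter on low values and 8 to 11 without any 1 library. The number that fell was 2, and it was 1 with no filter, 1 with the replicate block, 1 to 2 without any 1 library and 3 with the exon length and GC trends removed, where 9 rose. Plxna2, Sema6b and Sema6c lost their calls with no filter (adjusted p = 0.11, 0.07 and 0.0943) and with the replicate block (0.106, 0.0563 and 0.0737), and Unc5b did so without 1 library; the cause was not tested.

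Of all genes, 1945 passed, and 890 did so with no filter, 1015 with the replicate block and 683 to 2176 without any 1 library. Of the partner genes 20 passed, and 9 did so with no filter, 10 with the replicate block and 7 to 22 without any 1 library. Among the omissions of 1 library, that of siNC replicate 1 gave the highest numbers (2176 and 22). Leaving out siNC replicate 2 gave 1060 and 9, and leaving out siSetdb1 replicate 1, 2 or 3 gave 689, 683 and 978 over all genes and 8, 7 and 11 partner genes. The replicate numbers are not known to pair the libraries: the correlation of deviations from the group mean was -0.16, 0.17 and -0.17 for replicates 1, 2 and 3, and with the replicate block 9 guidance genes passed, all among the 12. The settings with the trends of exon length and GC content both removed (12 guidance genes passed) were added after seeing the data. Depth limits many of the genes under 0.5 FPKM, where single reads decide a value. Robo1, with 16511 bases of exons, is an exception, at 45 to 103 reads per library.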
